A study of Mus musculus with 9 samples.

Results

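The genes described here are 38 interferon response genes, taken by symbol from the 54532 genes measured in mouse tibialis anterior muscle, a muscle of the lower hind limb. RNA was extracted from the muscle after injury, and poly-A RNA was sequenced in 9 libraries. The 3 groups held 3 libraries each: young mice (4 to 6 months) and old mice (24 months) of wild-type genotype, and old mice lacking P311 (genotype P311-/-), the product of the gene Nrep. Not stated in the labels are how many months old the P311-/- mice were, which cells the deletion acts in, how the muscle was injured and how long before collection. Libraries are numbered 1 to 3 within a group, with nothing on whether they came from different animals; p-values therefore reflect variation among libraries, which may be technical. The comparisons ask how these genes differ with age in injured muscle, and between old mice with and without P311.

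Interferons are cytokines that put tissues in an antiviral state. Type I interferons signal through the receptor chains IFNAR1 and IFNAR2 and the kinases JAK1 and TYK2 to a complex that contains STAT2 and IRF9 and binds the interferon-stimulated response element. Interferon gamma signals through IFNGR1 and IFNGR2 to the gamma-activated site, and it is the main inducer of the chemokine Cxcl9 and of many immunity-related GTPases. In injured muscle, infiltrating leukocytes, resident stromal cells and the muscle fibres can all carry interferon-induced transcripts.

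The stretches of 200 bases before the transcription start are shown for 7 of the genes because they carry matches to these 2 kinds of sequence. They are given 5′ to 3′ on the strand of the gene, from RefSeq on build GRCm38.p6, with capitals marking every match to either core motif. The core of the interferon-stimulated response element was searched as GAAA, 2 bases of any kind and GAAA, which on the other strand reads TTTC, 2 bases and TTTC. The core of the gamma-activated site was searched as TTC, 3 bases of any kind and GAA, which reads the same on both strands. The regions are chr4:156200819-156201018 on the minus strand for Isg15, chr19:34583329-34583528 on the plus strand for Ifit3, chr19:34607757-34607956 on the plus strand for Ifit3b and chr5:120907526-120907725 on the minus strand for Oas1a. They are chr8:71537473-71537672 on the minus strand for Bst2, chr11:58199356-58199555 on the plus strand for Igtp and chr11:53769814-53770013 on the plus strand for the first RefSeq start of Irf1.
Isg15: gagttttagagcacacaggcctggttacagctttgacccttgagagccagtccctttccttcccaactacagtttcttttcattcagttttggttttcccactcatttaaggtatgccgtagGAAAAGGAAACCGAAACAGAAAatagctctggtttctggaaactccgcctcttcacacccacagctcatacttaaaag
Ifit3: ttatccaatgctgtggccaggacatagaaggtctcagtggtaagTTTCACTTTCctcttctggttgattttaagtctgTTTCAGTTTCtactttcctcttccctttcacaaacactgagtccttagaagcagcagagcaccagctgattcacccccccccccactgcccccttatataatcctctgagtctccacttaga
Ifit3b: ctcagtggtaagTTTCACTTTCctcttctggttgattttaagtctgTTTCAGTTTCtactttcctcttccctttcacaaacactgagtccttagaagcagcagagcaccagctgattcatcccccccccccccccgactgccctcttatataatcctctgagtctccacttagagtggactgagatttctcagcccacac
Oas1a: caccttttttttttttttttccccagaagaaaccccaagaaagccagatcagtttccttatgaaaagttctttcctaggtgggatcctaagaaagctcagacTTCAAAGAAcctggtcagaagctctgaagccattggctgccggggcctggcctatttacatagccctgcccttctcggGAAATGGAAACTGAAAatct
Bst2: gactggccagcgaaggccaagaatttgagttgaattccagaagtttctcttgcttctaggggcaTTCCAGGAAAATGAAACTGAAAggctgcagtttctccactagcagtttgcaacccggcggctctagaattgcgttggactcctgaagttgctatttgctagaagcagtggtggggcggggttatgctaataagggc
Igtp: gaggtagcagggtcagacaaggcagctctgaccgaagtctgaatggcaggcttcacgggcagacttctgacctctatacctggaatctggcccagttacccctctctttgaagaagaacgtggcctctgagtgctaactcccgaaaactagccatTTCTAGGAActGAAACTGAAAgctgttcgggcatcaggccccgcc
Irf1: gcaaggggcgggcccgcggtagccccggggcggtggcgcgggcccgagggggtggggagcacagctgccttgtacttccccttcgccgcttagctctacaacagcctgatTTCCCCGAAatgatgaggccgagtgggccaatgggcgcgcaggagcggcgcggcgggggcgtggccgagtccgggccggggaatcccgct

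Isg15 held 3 overlapping matches to the response element core, starting 78, 72 and 66 bases before the transcription start. Oas1a held 2 overlapping matches starting 20 and 14 bases before the start, and a match to the gamma-activated site core 98 bases before it. In Bst2 the gamma-activated site core at 136 bases ran into 2 overlapping response element cores at 130 and 124 bases. In Igtp the gamma-activated site core at 45 bases lay next to a response element core at 34 bases, and Irf1 held only the gamma-activated site core, 90 bases before its first start. Ifit3 and Ifit3b, neighbouring genes on chromosome 19, each held 2 response element cores the same distance apart, and their promoters were identical at 259 of 274 aligned positions (94.5%).

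Promoters from 250 bases before to 50 bases after the start were searched on both strands for 28 of the 38 genes with an entry in the RefSeq table. The response element core was in 18 of the 28 (64.3%), against 3.99% of 27025 genes, and the gamma-activated site core was in 8 (28.6%), against 9.55%. These are matches of letters and not measured binding. The genes without an entry were Dhx58, Ifi27, Iigp1, Mx1, Mx2, Oas2, Parp14, Rtp4, Usp18 and Zbp1.

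The libraries held 14222204 to 31910890 reads assigned to genes. Nrep stood at 63.9 to 86.3 FPKM in the 6 wild-type libraries and at 14.8, 6.37 and 9.72 FPKM in P311-/- replicates 1, 2 and 3. FPKM are reads scaled by gene length and library size. The muscle fibre markers Ckm, Acta1, Mb, Myh4 and Tnnt3 summed to 28502 to 42718 FPKM in every library, so the label of muscle tissue was met. Which muscle it was, and its injury, were not tested. One library stood apart: P311-/- replicate 1 had the highest summed B cell and T cell marker levels of the 9, and each comparison that includes it is given with and without it. Weighting libraries by how well all genes fit their group means gave it a weight of 0.270, the lowest of the 9.

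All 38 interferon response genes were detected in every library. In young muscle, Bst2 (mean 54.8 FPKM) and Ifi27 (33.6 FPKM) had the highest levels, followed by Isg15 (16.9 FPKM), Ifit3 (15.2 FPKM) and Irf7 (14.6 FPKM). Mx2 (0.875 FPKM), Ifi44 (1.40 FPKM) and Oas3 (1.57 FPKM) had the lowest. Fold changes and deviations below are on the scale of log2(FPKM + 0.1), which understates differences of the lowest genes.

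The young libraries were close to each other, and the old libraries were split within each group. The summed level of the 38 genes was 314, 305 and 299 FPKM in young replicates 1, 2 and 3. It was 331, 228 and 212 FPKM in old wild type, and 422, 145 and 161 FPKM in old P311-/-. Replicate 1 of both old groups was thus above the young libraries, by more in P311-/-, while the 4 other old libraries were below all young libraries. In bulk tissue, fewer cells of a type and less RNA per cell cannot be told apart, and this holds for every level given here.

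The same split was seen gene by gene. The median deviation of the 38 genes from their young mean was 0.04, -0.54 and -0.66 on the log2 scale in old wild-type replicates 1, 2 and 3, and 0.50, -1.20 and -0.95 in P311-/- replicates 1, 2 and 3. Over all 14233 genes tested, the same medians lay between -0.00 and 0.04. P311-/- replicate 1 was the highest of its group for 38 of 38 genes, against 38.2% of all genes, and the highest of all 9 libraries for 25 of 38, against 6.04%. P311-/- replicates 2 and 3 were the lowest of all 9 libraries for 23 and 11 genes, against 15.9% and 12.1% of all genes. Old wild-type replicate 1 was the highest of its group for 36 of 38 genes, against 33.1%; the exceptions were the GTPases Gbp7 and Iigp1, for which replicate 2 was highest.

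**Figure D1:**
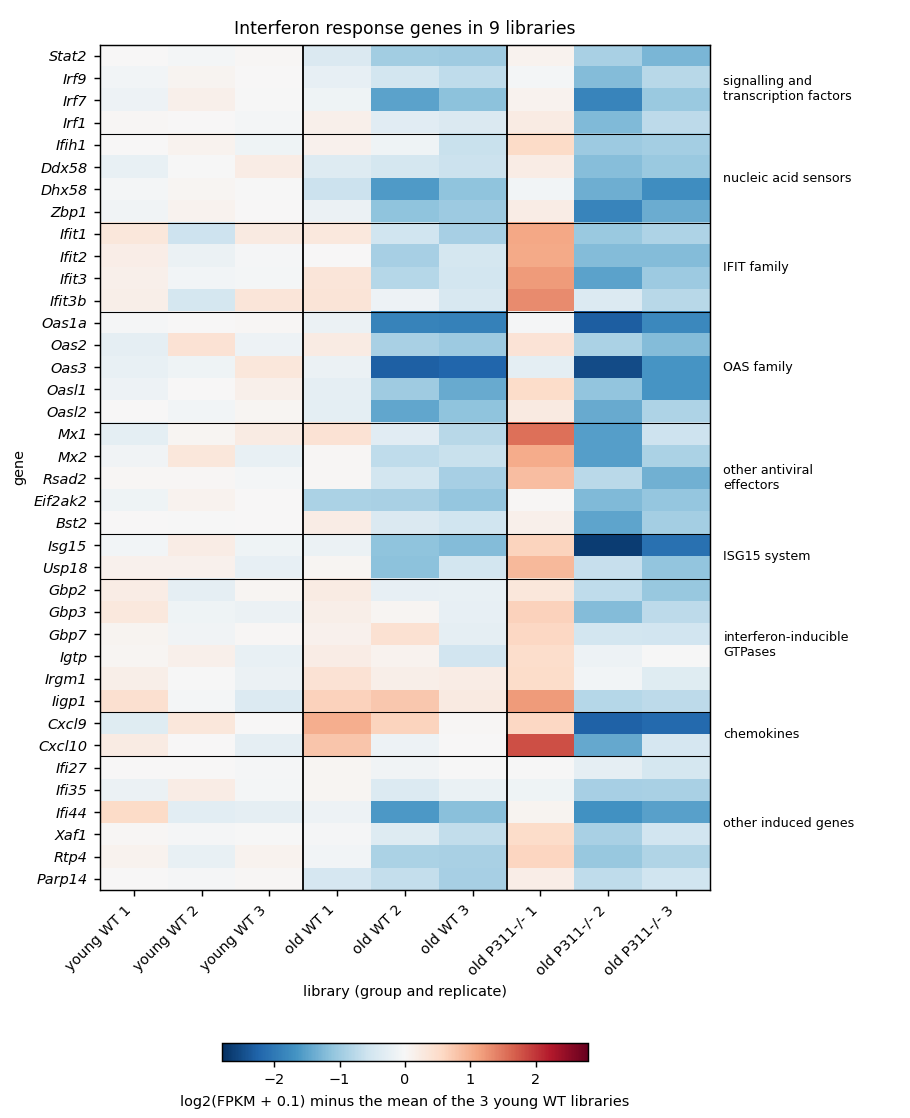
Each cell is the log2(FPKM + 0.1) of 1 gene in 1 library minus its mean in the 3 young wild-type libraries; columns are the 9 libraries, rows the 38 genes grouped by role, and blue is lower and red higher than young. Old wild-type replicates 2 and 3 and P311-/- replicates 2 and 3 are mostly blue, and P311-/- replicate 1 is mostly red, with a median deviation of 0.50.

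The spread within groups grew accordingly. The ratio of the highest to the lowest library of a group was taken with 0.1 FPKM added to each value. Its median was 1.25 in young, 1.78 in old wild-type and 3.30 in P311-/- muscle. Over all genes tested it was 1.27, 1.29 and 1.42. The ratio was above 2 for 0, 12 and 33 of the 38 genes, against 10.3%, 10.6% and 18.2% of all genes. On plain FPKM, with nothing added, the P311-/- ratio was widest for Cxcl10 (10.6), Isg15 (9.99), Mx1 (9.60), Mx2 (8.07) and Cxcl9 (7.77). It was narrowest for Ifi27 (1.40), Igtp (1.57), Ifi35 (1.76) and Irgm1 (1.81). The plain ratio is also the one given for single genes below.

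Against young wild type, P311-/- replicate 1 was below all 3 young libraries for 3 of the 38 genes, while replicate 2 was below all of them for 35 and replicate 3 for 37. The same counts below young were 11, 27 and 31 for old wild-type replicates 1, 2 and 3. Over all genes, 29.7% to 34.5% were below all young libraries in any of these libraries. Against old wild type, P311-/- replicate 1 was above all 3 old libraries for 33 genes, whereas replicates 2 and 3 were below all of them for 28 and 26. The corresponding shares of all genes were 26.1%, 33.4% and 34.1%.

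None of the 38 genes passed an adjusted p of 0.05 in limma with Benjamini-Hochberg adjustment over all 14233 genes tested, in any of the 3 comparisons. For old against young wild type, 0 of 38 genes passed, where 5.40% of all genes did, and the smallest adjusted p was 0.0767, for Eif2ak2. For P311-/- against old wild type, 0 of 38 passed, where 0.0703% of all genes did, and the smallest was 0.266, for Cxcl9. For P311-/- against young wild type, 0 of 38 passed, where 0.400% did, and the smallest was 0.150, for Ifi35.

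Most differences from young muscle were nevertheless on the lower side. The median log2 fold change of the 38 genes was -0.45 for old against young wild type, with 33 genes below 0, and -0.48 for P311-/- against young wild type, with 35 below 0. The medians over all genes were 0.00 and 0.01. These comparisons share the young libraries. Leaving out 1 library moved the first median to -0.67 without old wild-type replicate 1, to -0.31 without replicate 2 and to -0.28 without replicate 3. The median against young in P311-/- moved to -1.05 without P311-/- replicate 1 and to -0.26 without replicate 2 or 3. For P311-/- against old wild type the median was -0.05, with 21 genes below 0, and over all genes it was -0.00. It ranged from -0.60 to 0.24 as each library was left out, so its sign rested on single libraries. Reads of mitochondrial genes made up 8.79% to 10.7% of reads in young and 13.2% to 17.6% in old wild-type libraries, and 9.47%, 14.1% and 10.7% in P311-/- replicates 1, 2 and 3. Their part in these differences was not tested.

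At an unadjusted p under 0.05, 6 genes were lower in old than in young wild type, where 12.4% of all genes were, namely Stat2, Dhx58, Oas3, Oasl2, Eif2ak2 and Parp14. The 3 old libraries were all below the 3 young libraries for 11 of the 38 genes, where 18.1% of all genes were. These 11 were Stat2, Irf9, Ddx58, Dhx58, Zbp1, Oas1a, Oasl1, Oasl2, Eif2ak2, Isg15 and Parp14. In P311-/- against young wild type, 5 genes were lower at an unadjusted p under 0.05, where 10.6% of all genes were, namely Irf9, Dhx58, Oas1a, Eif2ak2 and Ifi35, and 3 did not overlap, where 12.0% did, namely Dhx58, Oas1a and Oas3. In P311-/- against old wild type, Cxcl9 alone was lower at that p, where 8.54% of all genes were, and for 0 of 38 genes were all P311-/- libraries below all old wild-type libraries, where 9.39% were. No gene of the 38 was higher at an unadjusted p under 0.05 in any comparison.

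**Figure D2:**
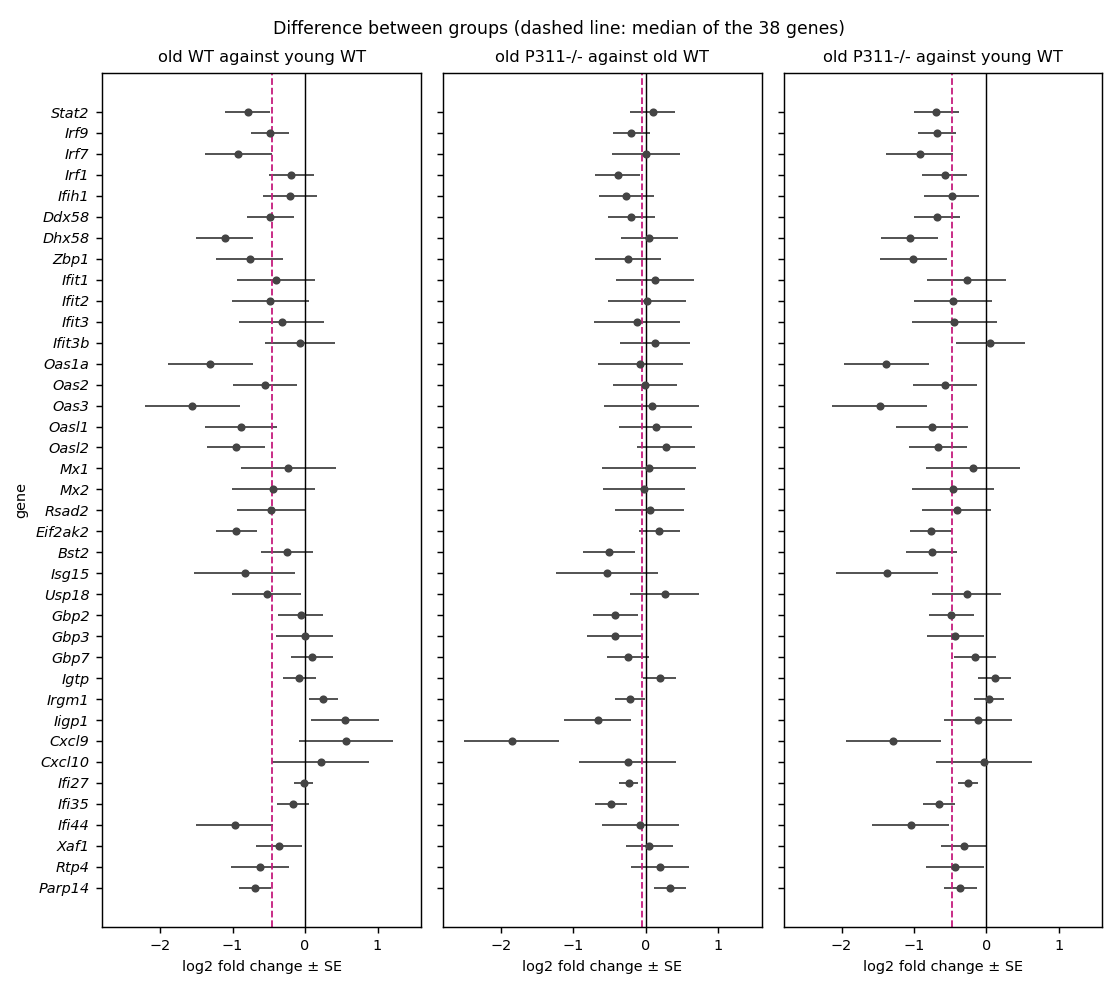
Points are the log2 fold change of each of the 38 genes and bars its standard error, for the 3 comparisons in 3 panels; the dashed line is the median of the 38 genes. The median is -0.45 in old against young wild type, -0.05 in P311-/- against old wild type and -0.48 in P311-/- against young wild type.

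Of the transcription factors, Stat2, a part of the type I complex, was at 5.67, 5.43 and 5.75 FPKM in young replicates 1, 2 and 3, at 4.22, 2.81 and 2.75 FPKM in old wild type, and at 6.01, 2.95 and 2.26 FPKM in P311-/-. All old wild-type libraries were below the young ones, and P311-/- replicate 1 was above every other library. Stat2 had a log2 fold change of -0.79 ± 0.31 (SE) for old against young wild type (limma adjusted p = 0.145) and 0.10 ± 0.31 for P311-/- against old wild type (adjusted p = 0.893).

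Irf9, the DNA-binding part of that complex, was at 4.65, 5.17 and 4.99 FPKM in young, 4.22, 3.42 and 2.96 FPKM in old wild-type and 4.71, 2.08 and 2.83 FPKM in P311-/- libraries. Its old wild-type libraries did not overlap the young ones, and P311-/- replicate 1 lay within the young range. Irf7, the factor that amplifies type I interferon production, was at 13.2, 16.1 and 14.4 FPKM in young, 13.3, 5.07 and 6.53 FPKM in old wild-type and 15.6, 3.99 and 7.06 FPKM in P311-/- libraries. Both old groups overlapped the young group through replicate 1 alone. The log2 fold change of Irf7 was -0.92 ± 0.46 for old against young wild type (limma adjusted p = 0.236) and 0.00 ± 0.46 for P311-/- against old wild type (adjusted p = 0.998).

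Irf1, a factor induced strongly by interferon gamma, was at 6.49, 6.43 and 6.15 FPKM in young, 7.0, 5.10 and 4.81 FPKM in old wild-type and 7.48, 2.64 and 3.78 FPKM in P311-/- libraries. Replicate 1 of both old groups was above all young libraries, and the other old libraries were below them. P311-/- replicates 2 and 3 were also below all old wild-type libraries. The log2 fold change of Irf1 was -0.39 ± 0.31 for P311-/- against old wild type (limma adjusted p = 0.547). Among the 4 factors the median log2 fold change was -0.64 for old against young wild type and -0.69 for P311-/- against young wild type.

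The sensors of viral nucleic acid were Ifih1 and Ddx58, which encode MDA5 and RIG-I, Dhx58, which encodes their regulator LGP2, and Zbp1, a sensor that can start necroptosis. Dhx58 was at 3.21, 3.46 and 3.28 FPKM in young, 2.16, 1.03 and 1.45 FPKM in old wild-type and 3.12, 1.23 and 0.920 FPKM in P311-/- libraries. Every old library of both genotypes was below every young library, although P311-/- replicate 1 was close to them. Dhx58 had a log2 fold change of -1.11 ± 0.39 for old against young wild type (limma adjusted p = 0.115) and -1.06 ± 0.39 for P311-/- against young wild type (adjusted p = 0.175). Dhx58 overlaps the antisense gene Dhx58os, and whether counting used strand is unknown.

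Zbp1 was at 4.43, 5.07 and 4.76 FPKM in young, 4.26, 2.12 and 2.30 FPKM in old wild-type and 5.49, 1.25 and 1.74 FPKM in P311-/- libraries. The old wild-type libraries were all below the young ones, and the P311-/- libraries lay on both sides of them. Ddx58 and Ifih1 had young means of 3.36 ± 0.501 (SD, n = 3) and 2.35 ± 0.187 FPKM and P311-/- means of 2.27 ± 1.38 and 1.90 ± 1.32 FPKM. The 4 sensors had a median log2 fold change of -0.62 for old against young wild type and -0.85 for P311-/- against young wild type.

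The IFIT proteins bind viral RNA and block its translation. Ifit3 was at 16.7, 14.3 and 14.5 FPKM in young, 19.3, 8.65 and 10.5 FPKM in old wild-type and 34.7, 5.29 and 7.38 FPKM in P311-/- libraries. P311-/- replicate 1 was far above every other library, and P311-/- replicates 2 and 3 were the lowest of the 9, so the P311-/- mean of 15.8 ± 16.4 FPKM (SD, n = 3) describes none of its libraries. Ifit1 was at 8.87, 4.75 and 8.54 FPKM in young, 8.82, 4.77 and 3.66 FPKM in old wild-type and 15.1, 3.43 and 3.86 FPKM in P311-/- libraries. Its groups overlapped in every comparison. Ifit2 and Ifit3b were also highest in replicate 1 within P311-/-, with ratios of the highest to the lowest library of 5.03 and 4.43. Of the 50-base windows of Ifit3 transcripts, 51.2% also occur in another gene, mainly Ifit3b, so reads may be split between them and the levels of both are uncertain.

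The OAS genes encode oligoadenylate synthetases, which activate the ribonuclease RNase L, and related proteins. Oas1a was at 7.74, 7.93 and 8.03 FPKM in young, 7.07, 2.08 and 2.06 FPKM in old wild-type and 7.72, 1.51 and 2.19 FPKM in P311-/- libraries. Replicate 1 of both old groups was just below the young range, and the other 4 old libraries formed a lower set. Oas1a had a log2 fold change of -1.31 ± 0.59 for old against young wild type (limma adjusted p = 0.195) and -1.38 ± 0.59 for P311-/- against young wild type (adjusted p = 0.218). Of its 50-base windows 57.6% occur in another gene, mainly Oas1g, so its level is uncertain.

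Oas3 had lower levels, with 1.33, 1.42 and 1.95 FPKM in young, 1.37, 0.239 and 0.252 FPKM in old wild-type and 1.27, 0.190 and 0.421 FPKM in P311-/- libraries. Old wild-type replicate 1 lay within the young range and the other old libraries were all below it. Its log2 fold change of -1.55 ± 0.66 for old against young wild type was the most negative of the 38 genes (limma adjusted p = 0.170). Oas2 was at 2.97, 4.79 and 3.22 FPKM in young, 4.21, 1.87 and 1.73 FPKM in old wild-type and 4.72, 1.89 and 1.48 FPKM in P311-/- libraries. Here replicate 1 of both old groups lay within the young range. Oasl2 was at 5.67, 5.31 and 5.80 FPKM in young, 4.58, 1.97 and 2.51 FPKM in old wild-type and 6.67, 2.04 and 3.04 FPKM in P311-/- libraries. All its old wild-type libraries were below the young range, and P311-/- replicate 1 was above it. The 5 genes of the family had a median log2 fold change of -0.96 for old against young wild type, the most negative of the 9 role groups, and 0.08 for P311-/- against old wild type.

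Eif2ak2, the kinase PKR that stops translation on sensing viral RNA, was the gene with the smallest p for age. It was at 4.33, 5.04 and 4.78 FPKM in young, 2.52, 2.47 and 2.19 FPKM in old wild-type and 4.79, 1.95 and 2.16 FPKM in P311-/- libraries. Unlike Oas1a, it was low in all 3 old wild-type libraries, replicate 1 included, and the highest old wild-type library was below the lowest young one. The log2 fold change was -0.95 ± 0.28 for old against young wild type (limma adjusted p = 0.0767) and 0.19 ± 0.28 for P311-/- against old wild type (adjusted p = 0.767).

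Bst2, which encodes the virus-retaining membrane protein tetherin, was at 55.2, 54.4 and 54.8 FPKM in young, 63.7, 41.1 and 37.3 FPKM in old wild-type and 60.7, 19.8 and 28.3 FPKM in P311-/- libraries. The young libraries differed by a ratio of 1.01, and replicate 1 of both old groups was above them. The other P311-/- libraries were below all old wild-type libraries. Mx1 and Mx2, dynamin-like antiviral GTPases, and Rsad2, which encodes viperin, had P311-/- ratios of highest to lowest library of 9.60, 8.07 and 4.86 and young ratios of 1.44, 1.5 and 1.07. Mx2 is annotated as a polymorphic pseudogene.

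Isg15 encodes a ubiquitin-like protein that is attached to other proteins, and Usp18 the protease that removes it and also damps the type I receptor. Isg15 was at 16.0, 19.3 and 15.3 FPKM in young, 15.1, 7.58 and 7.17 FPKM in old wild-type and 25.9, 2.59 and 3.85 FPKM in P311-/- libraries. The old wild-type libraries did not overlap the young ones, replicate 1 only just, and within P311-/- the ratio of highest to lowest was 9.99. Isg15 had a log2 fold change of -0.84 ± 0.70 for old against young wild type (limma adjusted p = 0.478) and -0.54 ± 0.70 for P311-/- against old wild type (adjusted p = 0.724). Usp18 was at 2.89, 2.87 and 2.25 FPKM in young, 2.78, 1.15 and 1.82 FPKM in old wild-type and 5.10, 1.66 and 1.19 FPKM in P311-/- libraries. Its P311-/- replicate 1 was above all other libraries and its groups overlapped.

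**Figure D3:**
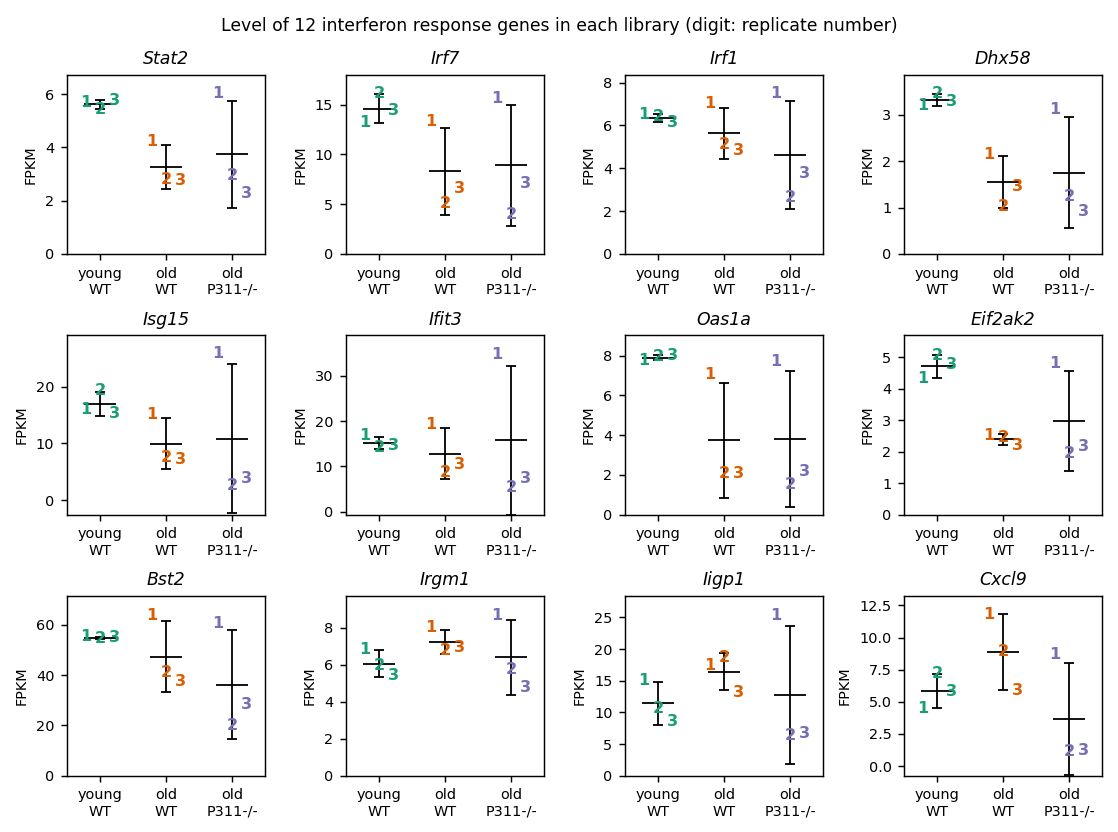
Each panel shows the FPKM of 1 gene by group; digits are the replicate numbers of the 9 libraries, and black bars are the group mean ± SD of 3 libraries. In P311-/- muscle the digit 1 stands above 2 and 3 in all 12 panels, for example 25.9 against 2.59 and 3.85 FPKM for Isg15, and the bars below 0 for Isg15, Ifit3 and Cxcl9 come from that spread.

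The interferon-inducible GTPases act on the vacuoles of intracellular pathogens. Their median log2 fold change was 0.04 for old against young wild type, with 3 of 6 genes above 0. Irgm1 was at 6.82, 5.97 and 5.39 FPKM in young, 7.99, 6.76 and 6.93 FPKM in old wild-type and 8.66, 5.73 and 4.78 FPKM in P311-/- libraries. The groups overlapped, and the log2 fold change was 0.25 ± 0.20 for old against young wild type (limma adjusted p = 0.457). Igtp overlaps its relative Irgm2 on the same strand over 7974 bases, so its level is uncertain.

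Iigp1, the GTPase that attacks parasite vacuoles, was at 15.1, 10.6 and 8.51 FPKM in young, 17.5, 18.7 and 13.2 FPKM in old wild-type and 25.3, 6.34 and 6.59 FPKM in P311-/- libraries. Old wild-type replicates 1 and 2 were above all young libraries, and old wild-type replicate 3 lay within the young range. P311-/- replicate 1 was the highest of all libraries and P311-/- replicates 2 and 3 were the lowest. The log2 fold change was 0.55 ± 0.47 for old against young wild type (limma adjusted p = 0.487) and -0.67 ± 0.47 for P311-/- against old wild type (adjusted p = 0.488). Gbp2, Gbp3 and Gbp7, guanylate-binding proteins, had log2 fold changes of -0.06, -0.01 and 0.09 for age and -0.42, -0.43 and -0.25 for P311-/- against old wild type.

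Cxcl9 and Cxcl10 encode chemokines that draw activated T cells and natural killer cells through the receptor CXCR3. Cxcl9 was at 4.49, 7.18 and 5.81 FPKM in young, 11.8, 8.90 and 5.87 FPKM in old wild-type and 8.65, 1.11 and 1.19 FPKM in P311-/- libraries. P311-/- replicates 2 and 3 were the lowest of the 9 libraries, whereas replicate 1 lay within the old wild-type range. At -1.85 ± 0.65, its log2 fold change for P311-/- against old wild type was the most negative of the 38 genes (limma adjusted p = 0.266). Its log2 fold change with age was 0.56 ± 0.65 (limma adjusted p = 0.618).

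Cxcl10 was at 2.49, 2.15 and 1.78 FPKM in young, 3.73, 1.90 and 2.13 FPKM in old wild-type and 7.61, 0.720 and 1.5 FPKM in P311-/- libraries. P311-/- replicate 1 was highest and replicates 2 and 3 were lowest of the 9. The whole of Cxcl10, 2252 bases on chromosome 5, lies within Art3 on the opposite strand, and Art3 was at 15.3 to 52.5 FPKM. The overlap was found from gene positions alone, and whether the exons overlap was not checked. If they do, reads of Art3 and Cxcl10 could be told apart only by strand. Art3 was at 20.1, 52.5 and 46.9 FPKM in P311-/- replicates 1, 2 and 3, and its part in the level of Cxcl10 was not tested.

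Parp14, a mono-ADP-ribosyltransferase, was at 4.73, 4.58 and 4.79 FPKM in young, 3.34, 2.91 and 2.43 FPKM in old wild-type and 5.37, 2.84 and 3.16 FPKM in P311-/- libraries. As for Eif2ak2, all old wild-type libraries were below all young ones, with a log2 fold change of -0.69 ± 0.22 (limma adjusted p = 0.0913). Ifi35 was at 8.95, 11.7 and 9.67 FPKM in young, 10.4, 7.69 and 8.84 FPKM in old wild-type and 9.16, 5.21 and 5.33 FPKM in P311-/- libraries. Its difference of -0.65 ± 0.22 between P311-/- and young wild type had the smallest adjusted p of that comparison (limma adjusted p = 0.150).

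Ifi27 varied least of the 38 genes within each of the old groups. It was at 34.0, 33.9 and 32.8 FPKM in young, 34.8, 31.5 and 33.2 FPKM in old wild-type and 33.1, 28.3 and 23.7 FPKM in P311-/- libraries. Only P311-/- replicates 2 and 3 were outside the range of the wild-type libraries. Ifi44, the zinc-finger gene Xaf1 and Rtp4 had young means of 1.40, 3.0 and 10.3 FPKM and log2 fold changes of -0.97, -0.36 and -0.62 for old against young wild type.

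With P311-/- replicate 1 left out, which leaves 2 P311-/- libraries in the fit, 29 of the 38 genes were lower in P311-/- than in young wild type, where 9.40% of all genes were, at an adjusted p under 0.05 in limma. Isg15 fell by 2.37 ± 0.31 on the log2 scale (adjusted p = 0.00334), Cxcl9 by 2.22 ± 0.28 (adjusted p = 0.00314), Oas1a by 2.06 ± 0.48 (adjusted p = 0.0221) and Eif2ak2 by 1.16 ± 0.14 (adjusted p = 0.0026). The 9 genes that did not pass were Ifit1, Ifit3b, Oas2, Mx1, Usp18, Gbp7, Igtp, Irgm1 and Cxcl10. The median log2 fold change of the 38 genes was -1.05, in place of -0.48 with all libraries. The library stood apart on these same genes as well as on others, so this count is a description of how far 1 library decides the result.

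Against old wild type, the same fit called 9 genes lower, where 6.38% of all genes were, namely Bst2, Cxcl9, Ddx58, Gbp2, Gbp3, Ifi35, Iigp1, Irf1 and Isg15. P311-/- replicate 1 was the highest of its group for every one of the 38 genes, so leaving it out could only lower their P311-/- means. Cxcl9 fell by 2.79 ± 0.28 on the log2 scale (limma adjusted p = 0.00275), Isg15 by 1.54 ± 0.31 (adjusted p = 0.0184), Iigp1 by 1.32 ± 0.23 (adjusted p = 0.0119) and Bst2 by 0.96 ± 0.23 (adjusted p = 0.0296). Of the 5 OAS genes, 0 passed, with Oas1a at -0.75 ± 0.48 (adjusted p = 0.324). For old against young wild type, whose own libraries were unchanged, the smaller shared spread gave 4 genes lower, where 5.20% of all genes were, namely Stat2, Dhx58, Eif2ak2 and Parp14. No gene of the 38 was called higher in this fit, where 7.44% of all genes were for age, 7.19% for P311-/- against old wild type and 10.6% for P311-/- against young wild type. Leaving out any other library called none of the 38. In those fits 0% to 2.74% of all genes were called lower for age. The shares were 0.0212% to 0.0568% for P311-/- against old wild type and 0.0142% to 0.149% against young wild type. For P311-/- against old wild type, the median log2 fold change of the 38 genes was -0.60 without P311-/- replicate 1. It was 0.22 when old wild-type replicate 1 was left out instead.

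**Figure D4:**
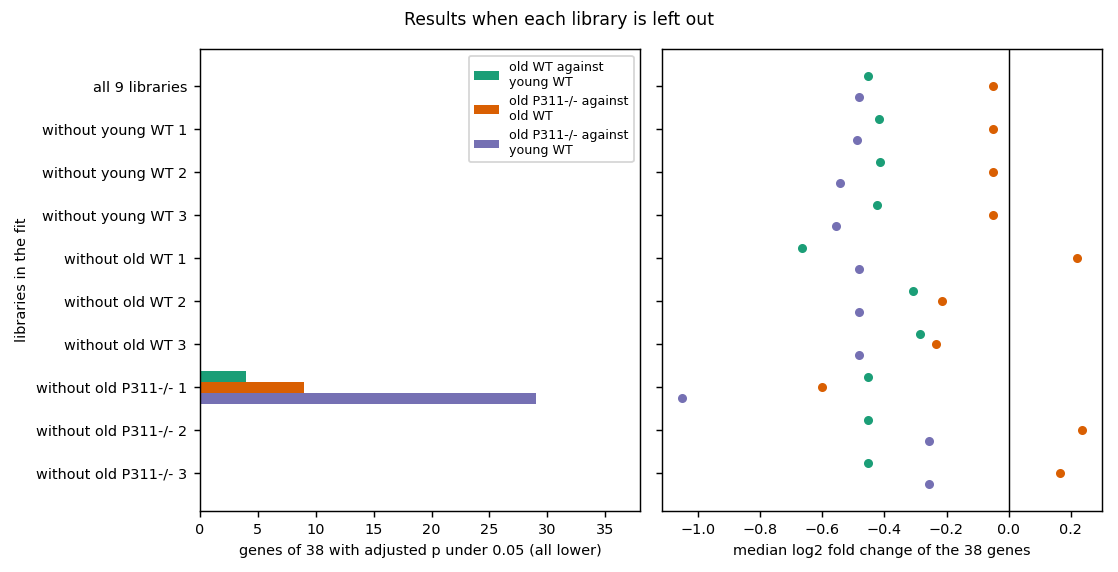
Bars on the left count the genes of 38 with an adjusted p under 0.05 in limma for the fit with all 9 libraries and for fits with 1 library left out, in the 3 comparisons; points on the right are the median log2 fold change of the 38 genes. Of these fits, only that without P311-/- replicate 1 calls any of the 38 genes, with 29, 9 and 4, all lower.

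The ligands of the pathway were hardly read. Of 21 interferon genes listed, 15 had 0 reads in every library, Ifnb1 among them, which allows up to 3 reads per library, and none passed the filter. Ifng had 0, 1 and 0 reads in young, 3, 0 and 2 in old wild-type and 3, 2 and 0 in P311-/- libraries, so no difference was detectable at this depth. Both chains of the type I and of the interferon gamma receptor were read in all libraries. Ifnar1 was at 6.87, 6.52 and 7.74 FPKM in young, 4.59, 5.31 and 5.42 FPKM in old wild-type and 7.16, 3.94 and 5.31 FPKM in P311-/- libraries (log2 fold change -0.46 ± 0.20 for age, limma adjusted p = 0.176). Ifnar2 was lowest in P311-/- replicates 2 and 3, at 2.25 and 3.76 FPKM against 4.86 to 6.81 FPKM in the other libraries. Ifngr1 and Ifngr2 stayed within 18.1 to 24.9 and 14.8 to 18.8 FPKM.

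Of the 5 receptor genes, 10 genes of the JAK-STAT relay and 15 genes of upstream sensing that were tested, 0 were called in any comparison. A further 48 interferon-induced genes outside the 38 were also tested, with 0 calls. Over all genes, 5.40% were called for age, 0.0703% for P311-/- against old wild type and 0.400% for P311-/- against young wild type. The median log2 fold changes of the 48 genes were -0.28, -0.14 and -0.37 in the same order. P311-/- replicate 1 was the highest of its group for 47 of these 48 genes and old wild-type replicate 1 for 39. The matching shares of all genes are those given above for the same libraries.

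Markers of infiltrating cells were read in the same libraries. Summed over the 3 leukocyte markers Ptprc, Coro1a and Laptm5, the level was 44.3 to 65.9 FPKM in young, 43.2, 31.4 and 30.4 FPKM in old wild-type and 46.7, 19.4 and 28.3 FPKM in P311-/- replicates 1, 2 and 3. The 8 macrophage and monocyte markers summed to 148 to 219 FPKM in young, 174, 115 and 124 FPKM in old wild-type and 151, 83.4 and 101 FPKM in P311-/- libraries. Both lists had their highest old wild-type and P311-/- level in replicate 1, as the interferon response genes did. In P311-/- replicate 1, however, neither list exceeded the young range.

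B cell and T cell marker sums in that library were above the young range. The 4 B cell markers summed to 1.36 to 1.87 FPKM in young, 0.73 to 2.15 FPKM in old wild-type, and 9.98, 1.03 and 1.15 FPKM in P311-/- libraries, and the 6 T cell markers to 3.63 to 6.33, 4.22 to 5.24, and 8.54, 2.52 and 2.71 FPKM. Cd4 in P311-/- replicate 1, at 1.82 FPKM, lay within the young range of 1.29 to 3.75 FPKM. The 5 natural killer cell markers summed to 2.98 to 5.30 FPKM in young, 5.84 to 11.1 FPKM in old wild-type, and 5.25, 2.09 and 3.52 FPKM in P311-/- libraries, so replicate 1 lay within the young range. The B cell gene Ms4a1 was at 0 in P311-/- replicates 2 and 3 and at 1.56 FPKM in replicate 1. Within P311-/-, replicate 1 was highest for 3 of 3 leukocyte, 7 of 8 macrophage, 6 of 6 T cell and 2 of 2 tested B cell markers, 3 of 3 tested natural killer cell and 5 of 5 fibroblast markers, and for 0 of 5 muscle fibre markers. The macrophage count includes Cd14, nearly level at 11.20, 11.14 and 11.18 FPKM in P311-/- replicates 1, 2 and 3. Itgam was lowest in replicate 1, at 1.11, 1.17 and 1.25 FPKM. The share of all genes highest in this library of its group is given above. Neutrophil and dendritic cell markers were also read, and their levels by library are not given here. The muscle fibre markers summed to 29612 FPKM in P311-/- replicate 1 and to 42718 and 39874 FPKM in replicates 2 and 3. The part of these cells in the levels of the interferon response genes was not tested.

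**Figure D5:**
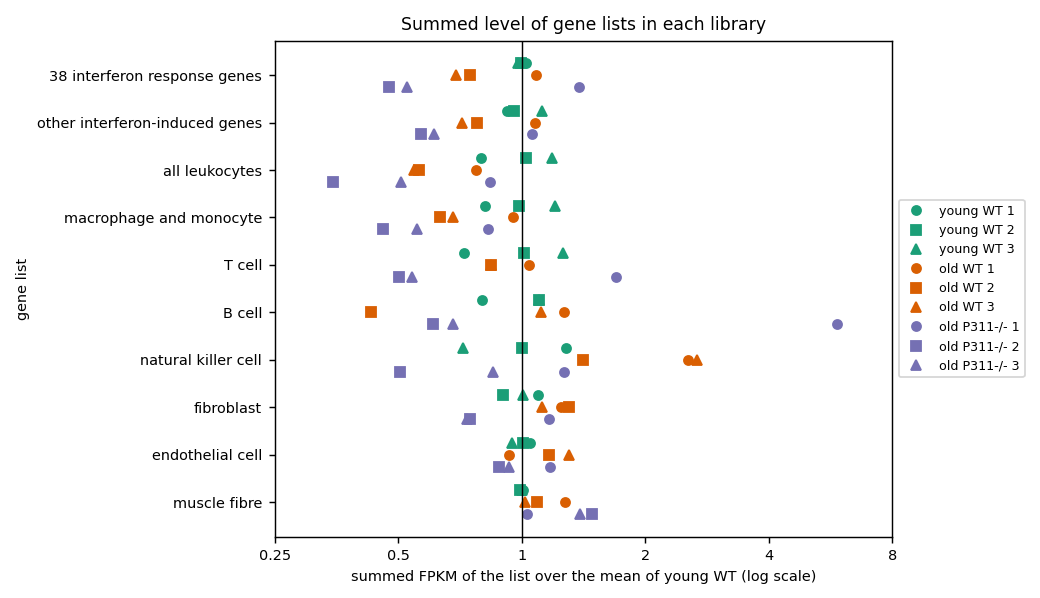
The horizontal axis is the summed FPKM of a gene list in each library divided by the mean of the 3 young libraries, on a log scale; rows are gene lists, colours the groups and symbols the replicates. P311-/- replicate 1 is at 1.38 for the 38 interferon response genes, 5.88 for the B cell list and 0.838 for the leukocyte list, and replicates 2 and 3 are at 0.475 and 0.526, 0.609 and 0.679, and 0.348 and 0.508.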

How the data were processed

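The deposited values were FPKM for 54532 genes in 9 libraries, divided by gene length and a library size scaled by the authors, and the gene length in bases was used as deposited by the authors. HISAT2 2.2.1, featureCounts 2.1.1, DESeq2 1.42.0 and the build mm39 are named, per the submitters' processing notes; however, 53499 of 54409 shared gene identifiers (98.3%) had the positions of GRCm38 in GENCODE M21, so positions are given on GRCm38. Strand use and other options are not given there. Scaled back by length and library, 100% of values were whole reads (tolerance 0.001), and these reads served for depth and filters.

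Testing needed 0.5 FPKM and 10 reads, each in 3 or more libraries, and 14233 genes met this. All 38 interferon response genes passed; a gene could pass through 1 group alone. Tests used limma 3.58.1 (R 4.3.3) on log2(FPKM + 0.1), with a mean-variance trend and robust moderation, all 9 libraries in 1 fit, and Benjamini-Hochberg adjustment over all genes tested, and calls had an adjusted p under 0.05. The fit was tested on simulated data. Alternatives were other pseudocounts, filters and scalings, a replicate block, 6 libraries only, library weights, voom on the recovered reads, a length correction and leaving out each library.

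The genes and lists were chosen with earlier results of these data known. Values in every library were given for the 5 genes with the smallest p in each comparison, the highest gene of each role group, and Stat2, Irf9, Irf7, Irf1, Isg15, Usp18, Ifit1, Ifit3, Cxcl9, Cxcl10, Irgm1 and Oas2; among other pathway genes, receptors, Ifnb1 and Ifng were named, and a result for 1 further gene is not reported here. Art3 was named because it overlaps Cxcl10. Copies were sought as shared windows of 50 bases in GENCODE transcripts.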

Additional observations from a re-analysis of the deposited data

How the results depend on the processing

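None of the 38 genes was called with a pseudocount of 0.01 or 1, without the filter on low values or with a filter of 1 FPKM (37 genes left), under scaling by total reads or by the upper quartile, with voom on recovered reads, or with the length trend removed. Of all genes, these settings called 0.0101% to 3.16% lower for age. The shares were 0.0203% to 0.0703% for P311-/- against old wild type and 0.0439% to 0.646% against young wild type. The lowest of each came without the filter. For old against young wild type, 4 genes were called lower with only the 6 libraries compared, where 4.77% of all genes were, and 5 with library quality weights, where 7.05% were. The weights called 5 genes lower in P311-/- against old wild type, where 9.77% of all genes were, and 21 in P311-/- against young wild type, where 10.7% were. P311-/- replicates 1, 2 and 3 had weights of 0.270, 0.687 and 2.54, so the P311-/- level in this fit rested mostly on replicate 3. The weighted fit called 0 of the 38 higher, where 9.04%, 9.34% and 11.6% of all genes were, in the order age, P311-/- against old and P311-/- against young wild type. As each library was left out, 0 to 4, 0 to 9 and 0 to 29 of the 38 genes were called in the 3 comparisons in that order. The upper values came without P311-/- replicate 1, and 0 were called without any other library. Those other fits called 0% to 2.74%, 0.0212% to 0.0568% and 0.0142% to 0.149% of all genes lower. Over all the fits with 1 library left out, the median log2 fold change of the 38 genes ranged from -0.67 to -0.28, from -0.60 to 0.24 and from -1.05 to -0.26. Under the other alternatives it ranged from -0.58 to -0.35, from -0.41 to 0.00 and from -0.87 to -0.40. The cause of these shifts was not tested.

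Scaling by total reads put the median of all genes at -0.13 in both comparisons with young muscle, and turned 482 higher and 286 lower calls over all genes for age into 96 and 250. Same-numbered libraries of different groups had deviations that correlated between -0.10 and 0.15, so the replicate numbers were not taken to pair the libraries. With the replicate number as a block, 0 of the 38 genes were called in each comparison, and the calls over all genes went from 768, 10 and 57 to 0, 4 and 5. Each of the 38 genes had at least 15 reads in every library, and the part of counting error in the spread of the lowest was not tested; the interferon ligands had too few reads to test.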
